A study of Mus musculus with 6 samples.

Results

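Siglecs and paired immune receptors are cell-surface proteins of leukocytes, and 10 of their genes were followed here among the 51912 genes of the count tables: Siglec1, Siglece, Siglech, Cd33, Pilra, Pirb, Lair1, Lilrb4a, Cd300lf and Cd300ld. The genes were taken by their symbols, and all 10 were found. The cells came from the aorta-gonad-mesonephros (AGM), the part of the mouse embryo where the first haematopoietic stem cells form, at stage E10.5. All embryos were of the MacGreen strain, in which the promoter of Csf1r, the receptor for macrophage colony-stimulating factor, drives EGFP. Dissected AGM were digested in collagenase for 45 min at 37°C, and green cells were sorted by staining for CD206, the mannose receptor encoded by Mrc1. There were 3 RNA-seq libraries of GFP+CD206- cells (CD206neg) and 3 of GFP+CD206+ cells (CD206pos), from 3 litters, with the cells of 3 to 5 AGM pooled in a library. The titles number the AGM, and libraries with the same number are treated below as 1 litter, which is a reading of the labels. No treatment or mutation separated the groups, and the comparison asks how GFP+ cells sorted with and without the mannose receptor differ. The reporter marks cells that use the Csf1r promoter, which early myeloid precursors can do as well as macrophages.

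Siglecs are lectins that bind sialic acid on glycoproteins and glycolipids of the same or neighbouring cells. Paired receptors are families in which an inhibitory member, with tyrosine motifs called ITIMs in its tail, and an activating member, which signals through an adaptor with an ITAM, have similar ligand-binding domains. Phosphorylated ITIMs recruit the phosphatases encoded by Ptpn6, Ptpn11 and Inpp5d, and ITAM adaptors such as those encoded by Tyrobp and Fcer1g recruit the kinase Syk. In macrophages the balance of such receptors is known to set thresholds for phagocytosis and cytokine release.

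Total reads in genes per library lay between 16730846 and 18214283. The level of the sorted antigen gene Mrc1 averaged 93.9 ± 36.8 CPM (the usual unit of reads per library size, scaled by TMM; SD, n = 3) in CD206neg, and in CD206pos it averaged 1585 ± 181 CPM, which matched the labels. Macrophage marker genes were present in both groups, and 5 of 10 were higher in CD206pos (Adgre1, Mrc1, Cd68, Aif1 and Fcgr1), with a summed level of 3306 to 4178 CPM in CD206neg libraries and 6072 to 8791 CPM in CD206pos libraries. The rise of Mrc1 follows from the sorting and is no separate evidence. Of these sums Mrc1 alone held 51.6 to 118.5 CPM in CD206neg libraries and 1458 to 1792 CPM in CD206pos libraries. Markers of blood cell precursors were higher in CD206neg. Of 12 granulocyte precursor markers, 7 were tested and 6 were lower in CD206pos, among them Mpo, Prtn3, Ms4a3 and S100a8, with a summed level of 1863 to 2862 CPM in CD206neg and 17.6 to 70.0 CPM in CD206pos. Of 9 progenitor markers 7 were lower in CD206pos, among them Kit, Cd34, Cd93 and Flt3, with sums of 717 to 1009 CPM against 42.4 to 79.0 CPM. In bulk samples, fewer cells of a type and less RNA per cell cannot be told apart, and this touches every difference below.

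Of the 10 receptor genes 9 passed the filter on low counts and were tested, and Siglec1 did not. With edgeR's quasi-likelihood test and an adjusted p under 0.05 over all 12668 tested genes, Cd300ld rose in CD206pos, Pilra and Cd300lf fell, and the other 6 tested genes were not called. Over all tested genes 2.97% were called higher and 1.90% lower. With 9 tested genes these counts rest on 1 and 2 genes. The median log2 fold change of the 9 tested genes was 0.17, and that of all tested genes was -0.00. Levels in CD206pos lay wholly above those in CD206neg for Lilrb4a and Cd300ld and wholly below for Pilra and Cd300lf, so 2 genes stood apart in each direction, where 12.8% of all tested genes stood apart upwards and 11.8% downwards.

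The sequences just upstream of the 3 called genes are shown because their levels moved in opposite directions, and 2 of the genes, Cd300lf and Cd300ld, belong to 1 gene cluster. They are RefSeq promoter windows of build GRCm38.p6, all on the minus strand, up to 250 bases long and ending before the start of the transcribed part. The Pilra window is chr5:137836282-137836528, the Cd300lf window chr11:115133993-115134242 and the Cd300ld window chr11:114989923-114990136. Capitals mark matches on either strand to GAGGAA (a PU.1-type ETS motif), TTGCNNAA (a C/EBP-type motif) and GAAANNGAA (an interferon response element type).
Pilra: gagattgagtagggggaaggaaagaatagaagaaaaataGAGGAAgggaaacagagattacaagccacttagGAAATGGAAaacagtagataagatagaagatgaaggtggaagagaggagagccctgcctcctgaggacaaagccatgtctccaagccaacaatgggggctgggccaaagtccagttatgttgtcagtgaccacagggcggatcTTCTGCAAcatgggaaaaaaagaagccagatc
Cd300lf: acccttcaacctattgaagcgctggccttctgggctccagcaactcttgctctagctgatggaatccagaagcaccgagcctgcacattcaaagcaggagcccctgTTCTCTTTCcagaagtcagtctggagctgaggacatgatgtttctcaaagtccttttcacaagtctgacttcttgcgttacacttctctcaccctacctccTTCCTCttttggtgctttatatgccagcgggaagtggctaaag
Cd300ld: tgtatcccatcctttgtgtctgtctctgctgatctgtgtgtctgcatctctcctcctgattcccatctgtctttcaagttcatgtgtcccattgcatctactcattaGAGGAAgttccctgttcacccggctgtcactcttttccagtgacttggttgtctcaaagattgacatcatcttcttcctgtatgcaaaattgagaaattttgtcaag
Of the 10 genes 8 had a window in the table. Siglec1 and Lilrb4a had none. GAGGAA was found in 7 of the 8 windows (Siglece, Cd33, Pilra, Pirb, Lair1, Cd300lf and Cd300ld), against 23.1% of 27025 promoter windows of 250 bases. TTGCNNAA was found in 3 (Siglech, Pilra and Lair1), against 9.55% of all windows, and GAAANNGAA in Pilra and Cd300lf only, against 7.16%. TCACGTG, the E-box of MITF and TFE factors, was found in the Siglech window alone, as a pair of overlapping matches (3.15% of all windows). TGANTCA (AP-1) and TGCTGAC (a MAF-type motif) were found in none of the 8, against 6.87% and 3.72%. In the Cd33 gene the RefSeq start lies 11257 bases inside the start of the deposited gene model, so its window is within that model. A match is a string of letters and does not show that a factor binds there.

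**Figure D1:**
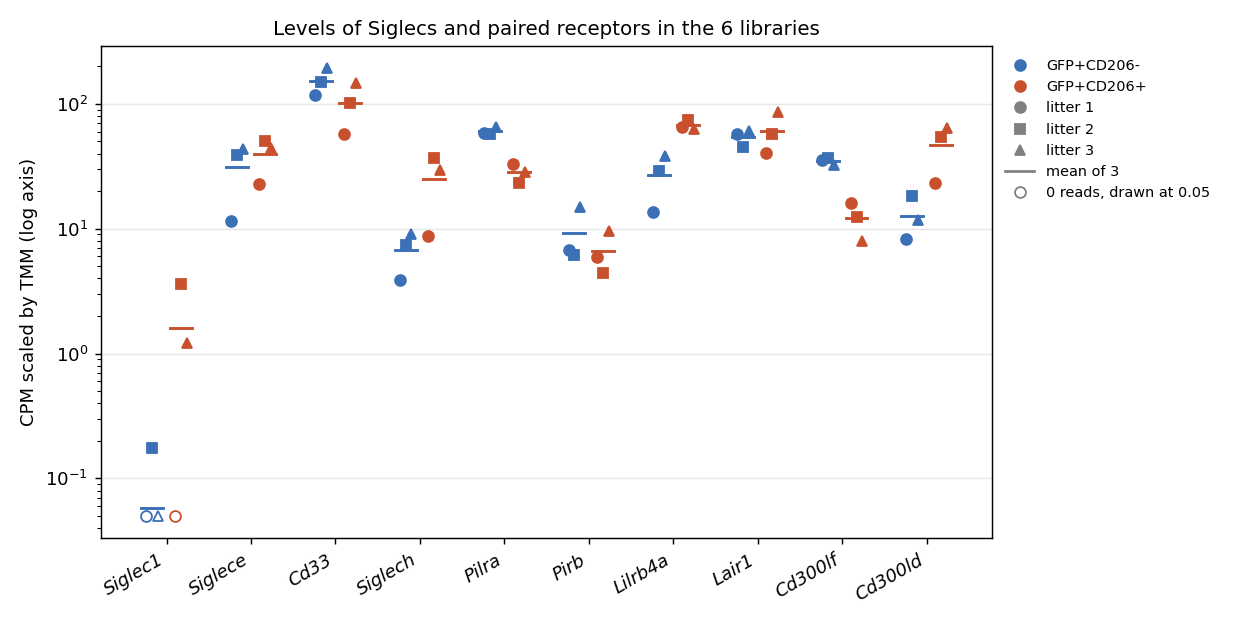
TMM-scaled CPM (log axis) of the 10 receptor genes in each library; blue points are GFP+CD206-, orange points GFP+CD206+, the marker shape gives the litter, bars are means of 3, and open points stand for 0 reads. The orange points of Cd300ld and Lilrb4a all lie above the blue ones, those of Pilra and Cd300lf all lie below, and Siglec1 reads are nearly all in 2 CD206pos libraries.

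Among the Siglecs, Siglec1 (chromosome 2, 131069220 to 131086765, minus strand) encodes sialoadhesin, an adhesion receptor of tissue macrophages without an ITIM. In the order of litters 1, 2 and 3, which holds for all reads given below, it had 0, 3 and 0 reads in CD206neg and 0, 63 and 21 reads in CD206pos. Both CD206pos libraries with reads were above all CD206neg libraries, and the CD206pos library of litter 1 was at 0. The groups therefore overlapped. Over the group totals this was 3 against 84 reads, a ratio of 29.2 with an exact 95% interval of 9.67 to 145 that covers counting error only. With the looser filter, which let Siglec1 into the fit, the adjusted p was 0.40.

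Siglech (chromosome 7, 55768178 to 55778925, plus strand) encodes a Siglec that signals through the Tyrobp adaptor and is known from plasmacytoid dendritic cells and microglia. Reads were 72, 127 and 162 in CD206neg and 143, 649 and 512 in CD206pos. In each litter the CD206pos library was the higher one, with log2 ratios of 1.16, 2.34 and 1.70, but the CD206pos library of litter 1 (8.74 CPM) lay below the CD206neg library of litter 3 (9.13 CPM). Mean levels were 6.80 ± 2.65 CPM and 25.2 ± 14.7 CPM, and the log2 fold change of 1.89 ± 0.55 (SE) was not called (adjusted p = 0.11). With the litter as a block it was called (log2 fold change 1.74, adjusted p = 0.041), as it was without CD206pos replicate 1 (adjusted p = 0.029) and with DESeq2 (adjusted p = 0.011). Of 12 plasmacytoid dendritic cell markers 6 were tested and 0 called. The summed level of these markers was 522 to 659 CPM in CD206neg and 569 to 629 CPM in CD206pos. Ly6d, Ccr9, Klk1 and Dntt had 0 reads in all 6 libraries, and Spib had 13 reads in 1 CD206neg library and 0 in the others. Pacsin1, Cox6a2 and Smim5 were at most 6.32 CPM in any library. The other markers of the list were present: Tcf4 was at 82.6 ± 19.9 and 151 ± 26.2 CPM without overlap (adjusted p = 0.067), Irf8 at 414 ± 61.9 and 365 ± 25.3 CPM, Bst2 at 81.6 ± 11.9 and 83.6 ± 18.7 CPM and Il3ra at 9.77 ± 2.48 and 8.65 ± 4.02 CPM. The part of such cells in the Siglech values was not tested.

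Siglece (chromosome 7, 43651070 to 43660161, minus strand), an inhibitory CD33-related Siglec with ITIMs, had 211, 668 and 778 reads in CD206neg and 374, 887 and 766 in CD206pos. The litter 1 library was the lowest in both groups. Means were 31.3 ± 17.4 CPM and 39.3 ± 14.6 CPM, a log2 fold change of 0.33 ± 0.49 that was within the spread (adjusted p = 0.82). Without CD206neg replicate 1 the sign turned (-0.07).

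Cd33 (chromosome 7, 43524216 to 43544428, minus strand), the founding gene of the CD33-related Siglecs, had 2164, 2567 and 3418 reads in CD206neg and 943, 1761 and 2526 in CD206pos. In each litter the CD206pos library was lower, with log2 ratios of -1.03, -0.56 and -0.40. The group ranges nevertheless overlapped, since litter 1 was lowest in both groups and litter 3 highest. Means were 153 ± 37.6 CPM and 102 ± 44.2 CPM, and the log2 fold change of -0.59 ± 0.32 was not called (adjusted p = 0.41) and was not called under any of the 18 alternatives.

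Of the other 5 mouse Siglec genes none was called. Siglecf, known from eosinophils and alveolar macrophages, averaged 13.2 ± 1.23 CPM (CD206neg) and 4.85 ± 3.44 CPM (CD206pos; adjusted p = 0.28), and Siglecg, an inhibitory B cell Siglec, at 9.33 ± 1.09 and 4.38 ± 1.27 CPM (adjusted p = 0.23). For both, the 2 groups did not overlap. Cd22 had 1 read in all 6 libraries together and Siglec15 had 0, and Mag had 0 to 68 reads. The median log2 fold change of the 3 tested ones was -1.09.

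Pilra (ENSMUSG00000046245, chromosome 5, 137821952 to 137836281, minus strand) encodes an inhibitory receptor with ITIMs that binds sialylated O-glycans on certain proteins. It had 1083, 1000 and 1154 reads in CD206neg and 539, 407 and 495 in CD206pos. The 3 CD206neg libraries lay within 57.9 to 65.1 CPM and the 3 CD206pos libraries within 23.3 to 33.0 CPM, so the groups did not overlap. Pilra was 2.14-fold lower in CD206pos, at 28.3 ± 4.83 CPM against 60.7 ± 3.86 CPM (log2 fold change -1.10 ± 0.21, adjusted p = 0.021). The log2 ratios within litters were -0.84, -1.31 and -1.18. The call was kept without CD206pos replicate 1 (adjusted p = 0.026) and lost without any other single library (adjusted p = 0.059 to 0.089) and without any litter, with the log2 fold change between -1.24 and -1.01 over all 18 alternatives. Exons of Pilra share 15.2% of their bases with Zcwpw1, and reads there were not assigned to either gene.

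The activating partners of Pilra, Pilrb1 and Pilrb2, were at low levels in the same direction. Pilrb1 had 75, 16 and 80 reads in CD206neg and 9, 0 and 12 in CD206pos (adjusted p = 0.30), and Pilrb2 had 52, 23 and 42 against 0, 18 and 23 (adjusted p = 0.66). For each of them every CD206pos library lay below every CD206neg library in CPM. The fall of Pilra went with the lower granulocyte precursor and progenitor marker sums in CD206pos given above, and their part in the result was not tested.

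Pirb (chromosome 7, 3711409 to 3720391, minus strand), an inhibitory receptor that binds MHC class I, had 125, 106 and 264 reads in CD206neg and 98, 77 and 166 in CD206pos. The levels of 9.28 ± 4.87 and 6.67 ± 2.66 CPM overlapped, and the log2 fold change of -0.48 ± 0.51 was not called (adjusted p = 0.73). The CD206neg library of litter 3 was the highest of the 6, and without it the value was 0.04. Of the 50-base windows of its exons 34.0% also occur in other genes, mainly relatives of the activating Pira type, so its counts can miss reads. Among those relatives Pira2 had 1 to 12 reads per library, and Lilra6 had 0, 36 and 51 reads in CD206neg and 0 in all CD206pos libraries.

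Lilrb4a (ENSMUSG00000112148, chromosome 10, 51490956 to 51496611, plus strand) encodes gp49B, an inhibitory receptor of mast cells and macrophages with ITIMs. It had 249, 504 and 674 reads in CD206neg and 1070, 1295 and 1093 in CD206pos. All CD206pos libraries (63.2 to 74.2 CPM) were above all CD206neg libraries (13.6 to 38.0 CPM). The mean was 2.51-fold higher, at 67.6 ± 5.80 against 26.9 ± 12.4 CPM, and the spread within CD206neg was wide. The log2 fold change of 1.33 ± 0.34 missed the threshold (adjusted p = 0.071). It passed with the looser filter (adjusted p = 0.037), the stricter filter (0.031), limma-voom (0.026) and DESeq2 (0.0035), and with the litter as a block it did not (0.051).

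The count of Lilrb4a is partial. Of its exon bases 35.9% overlap the gene models Gm49339 and Gm40645, where reads were not assigned, and 47.2% of its 50-base windows occur in other genes, mainly Gm49339 and the neighbouring relative Lilr4b. Gm49339 had 0 reads in all 6 libraries. Lilr4b had 178, 356 and 355 reads in CD206neg and 530, 709 and 505 in CD206pos, which did not overlap, with a log2 fold change of 1.02 (adjusted p = 0.14). Lilra5, an activating relative, had 2, 0 and 10 reads against 19, 59 and 99 (adjusted p = 0.18).

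Lair1 (chromosome 7, 4003402 to 4063204, minus strand), an inhibitory receptor for collagens and C1q, had 1046, 776 and 1085 reads in CD206neg and 657, 1006 and 1477 in CD206pos. It was lower in the CD206pos library of litter 1 and higher in those of the other litters, with log2 ratios of -0.50, 0.36 and 0.48. Means were 54.4 ± 8.42 and 61.1 ± 22.8 CPM, and the log2 fold change of 0.17 ± 0.28 was within the spread (adjusted p = 0.85). Its sign turned without CD206pos replicate 3 (-0.18).

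**Figure D2:**
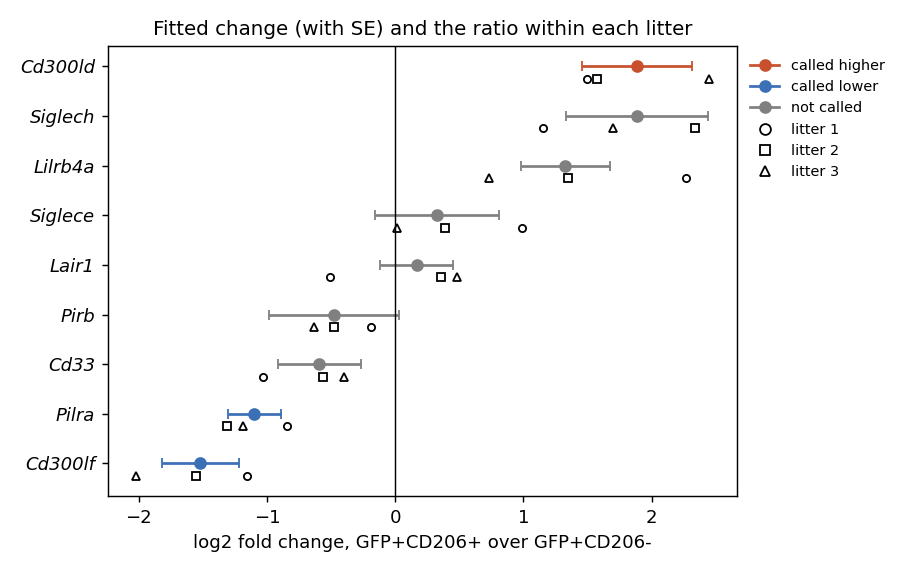
Log2 fold change of CD206pos over CD206neg for the 9 tested receptor genes, with bars of 1 SE, and below each the log2 ratio within each litter (black shapes). Cd300ld is called higher and Pilra and Cd300lf lower, Siglech and Lilrb4a are on the positive side in every litter without a call, and Lair1 has ratios on both sides of 0.

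The CD300 receptors bind lipids such as phosphatidylserine and ceramide on dying cells and particles, and their genes lie side by side on chromosome 11. Cd300ld rose and Cd300lf fell in the same CD206pos libraries. Cd300ld (ENSMUSG00000034641, chromosome 11, 114982274 to 114989922, minus strand), an activating receptor that signals through the Fcer1g adaptor, had 152, 315 and 208 reads in CD206neg and 383, 947 and 1104 in CD206pos. All CD206pos libraries were above all CD206neg libraries, and litter 1 was lowest in both groups. The mean was 3.70-fold higher, at 47.2 ± 21.1 against 12.8 ± 5.06 CPM (log2 fold change 1.89 ± 0.43, adjusted p = 0.045). The call was kept without CD206pos replicate 1 (0.023) and with the litter as a block (0.017), and lost without any other single library (adjusted p = 0.091 to 0.18), with upper-quartile scaling (0.052) and with library totals only (0.059).

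Cd300lf (ENSMUSG00000047798, chromosome 11, 115116214 to 115133992, minus strand), an inhibitory receptor with ITIMs, had 656, 633 and 574 reads in CD206neg and 263, 218 and 138 in CD206pos. The CD206neg libraries were close together, at 32.4 to 36.7 CPM, and all CD206pos libraries were below them, at 7.98 to 16.1 CPM. It was 2.87-fold lower, at 12.2 ± 4.06 against 34.9 ± 2.26 CPM (log2 fold change -1.52 ± 0.30, adjusted p = 0.026), with log2 ratios of -1.15, -1.55 and -2.02 within litters. The call was kept without CD206pos replicate 1 (adjusted p = 0.025) and lost without any other single library (adjusted p = 0.054 to 0.12). As for Pilra, the precursor marker sums moved the same way, and their part in the result was not tested.

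The read ratio of Cd300ld to Cd300lf in the CD206neg libraries was 0.232, 0.498 and 0.362, and in CD206pos it was 1.46, 4.34 and 8.0. Cd300lf was thus the more counted gene in every CD206neg library and Cd300ld in every CD206pos library. The mean log2 ratio differed by 3.41. The pair was chosen after its genes were seen to move in opposite directions, so the ratio is a description with no test. It needs no scaling between libraries. Only 3.89% of the 50-base windows of Cd300ld and 2.44% of those of Cd300lf occur in other genes.

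The cluster holds 11 Cd300 genes over 244 kb (chromosome 11, 114890041 to 115133992, build GRCm38), of which 6 were tested, 2 were called higher and 1 lower. The share over all tested genes was 2.97% higher and 1.90% lower. The called genes include Cd300ld and Cd300lf, already counted above. The relative with a call was Cd300a at one end of the cluster, an inhibitory phosphatidylserine receptor. It had 1671, 1235 and 2142 reads in CD206neg and 2546, 3008 and 3882 in CD206pos, with no overlap, and rose from 94.4 ± 24.8 to 184 ± 36.0 CPM (log2 fold change 0.96 ± 0.23, adjusted p = 0.0497). The call was lost with RLE (0.058), upper-quartile (0.065) and totals-only (0.076) scaling and without any single library other than CD206neg replicate 3 (0.063 to 0.18).

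Next to Cd300a lies Cd300lb, an activating receptor, at mean levels of 37.8 ± 15.9 CPM (CD206neg) and 15.5 ± 8.85 CPM (CD206pos), without overlap and without a call (adjusted p = 0.23). Cd300c2, next to Cd300ld, was at 29.6 ± 16.8 and 58.0 ± 20.5 CPM (adjusted p = 0.28; with the litter as a block it was called higher, adjusted p = 0.037), and Cd300e at 3.07 ± 1.28 and 3.64 ± 1.85 CPM (adjusted p = 0.92). The 5 untested genes of the cluster had at most 19 reads in any library, and Cd300ld4 and Cd300ld5 had 0 in all. Both directions were therefore found among inhibitory genes (Cd300a and Cd300lf), and the called activating gene was Cd300ld.

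**Figure D3:**
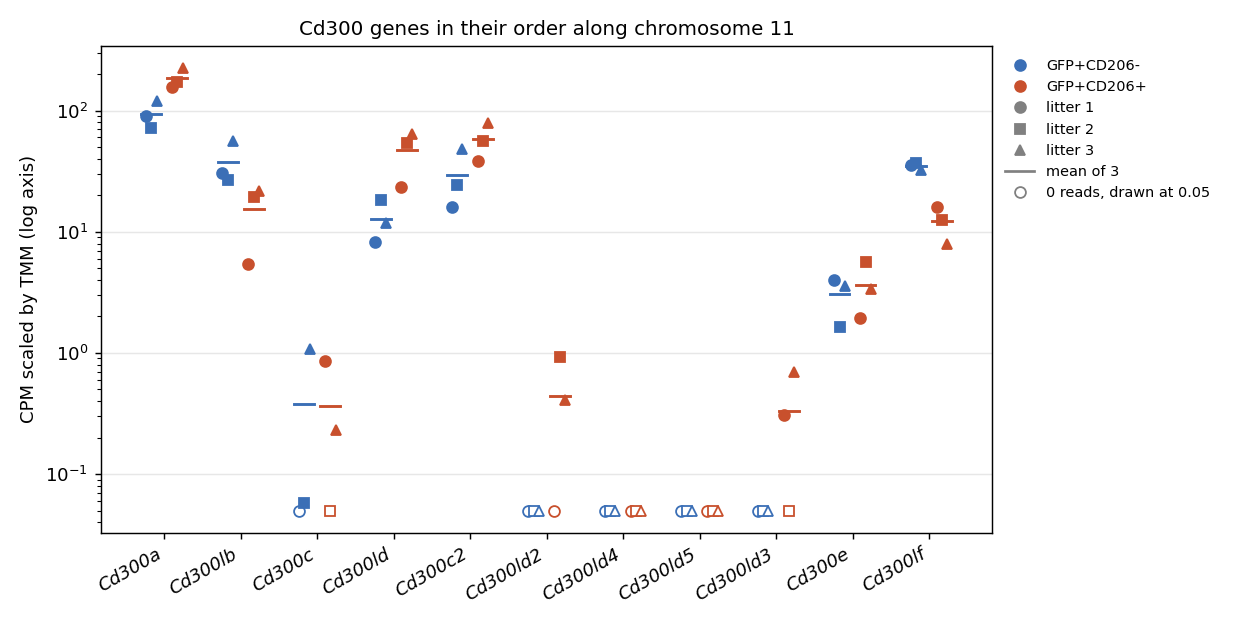
TMM-scaled CPM (log axis) of the 11 Cd300 genes, placed in their order along chromosome 11, in the 6 libraries; colours, shapes, bars and open points as in the plot of the 10 receptor genes. Cd300a and Cd300ld lie higher in orange (GFP+CD206+), Cd300lf at the other end lies higher in blue (GFP+CD206-), and the genes between Cd300c2 and Cd300e hold few or 0 reads.

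Of the relatives in the PIR, PILR, CD300 and LAIR families, 8 of the 15 found were tested, 1 was called higher (Cd300a) and 0 lower, with a median log2 fold change of 0.43. The called share was 12.5%, against 4.87% of all tested genes, and it rests on 1 gene. By an unadjusted p under 0.05, 2227 of all 12668 tested genes would pass.

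Divided by exon length, so that genes can be compared, the highest levels in CD206neg were those of Cd33 (19.7 ± 4.84 CPM per kb), Pilra (19.6 ± 1.25) and then Siglece, whose ranges overlapped. Lair1, Cd300lf, Lilrb4a and Cd300ld followed at 7.27 to 4.82 CPM per kb, then Pirb (2.08) and Siglech (2.01), each overlapping the next. Only the step from Siglech to Siglec1 (0.008 CPM per kb) was beyond the ranges. In CD206pos the order began with Siglece (21.3 ± 7.91 CPM per kb), Cd300ld (17.8 ± 7.99), Cd33 (13.1 ± 5.69) and Lilrb4a (12.9 ± 1.11), whose neighbours overlapped. Lilrb4a lay above the next gene, Pilra (9.16 ± 1.56, at most 10.7), without overlap. The wider ranges of Cd300ld (from 8.85) and Cd33 (from 7.42) did overlap Pilra. Pilra also overlapped Lair1 (8.17 ± 3.06) and, through it, Siglech (7.44 ± 4.35). Cd300lf (2.37 ± 0.79), Pirb (1.49 ± 0.60) and Siglec1 (0.23 ± 0.26) were the lowest, and only the last step was beyond the ranges. Levels of Pilra, Pirb and Lilrb4a leave out reads in their shared exon bases or windows.

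Of the genes downstream of these receptors, 1 of 4 tested phosphatase genes and 2 of 10 tested adaptor and kinase genes were called, where 4.87% of all tested genes were called in either direction. Of the 4 ITIM-recruited phosphatase genes, Inppl1, a lipid phosphatase, rose from 28.0 ± 4.14 to 57.0 ± 4.28 CPM (log2 fold change 1.03, adjusted p = 0.026). The call was kept without CD206pos replicate 1 and lost without any other single library (0.069 to 0.13). Ptpn6 was at 768 ± 88.1 and 684 ± 81.7 CPM (adjusted p = 0.65), Ptpn11 at 137 ± 10.6 and 121 ± 12.4 CPM (0.64) and Inpp5d, another lipid phosphatase, at 342 ± 65.5 and 474 ± 70.0 CPM (0.22). With the litter as a block Inpp5d was called higher (log2 fold change 0.47, adjusted p = 0.045). The median log2 fold change of the 4 was 0.15.

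Of 11 ITAM adaptor and kinase genes 10 were tested, 1 was called higher and 1 lower, with a median of 0.18. Fcer1g, the adaptor of Cd300ld, rose from 546 ± 76.6 to 909 ± 21.7 CPM (log2 fold change 0.74, adjusted p = 0.020), and Tyrobp, the adaptor of Siglech, was at 527 ± 71.5 and 604 ± 70.9 CPM (adjusted p = 0.59). Plcg2, a phospholipase activated downstream of Syk, fell from 580 ± 49.4 to 298 ± 60.3 CPM (log2 fold change -0.96, adjusted p = 0.015). The Fcer1g call was lost without a CD206neg library of litter 1 or 2 or a CD206pos library of litter 2 or 3 (0.081 to 0.11), and the Plcg2 call without a library of litter 1 or 2, other than CD206pos of litter 1 (0.070 to 0.096). Syk itself was at 129 ± 20.6 and 132 ± 33.2 CPM (adjusted p = 0.98).

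Sialic acid is the ligand of the Siglecs, and of its 27 synthesis, transfer and removal genes 20 were tested, 2 were called higher and 0 lower, with a median of -0.10. The called share was 10%, against 4.87% of all tested genes, and it rests on 2 genes. St6gal1, a sialyltransferase that caps N-glycans with sialic acid, had 232, 337 and 168 reads in CD206neg and 1241, 1416 and 2056 in CD206pos. It rose 6.63-fold, from 13.9 ± 5.14 to 92.0 ± 23.5 CPM (log2 fold change 2.73 ± 0.32, adjusted p = 0.0027), and the call was kept without each single library and lost without both libraries of litter 2 (0.075). Neu1, the lysosomal sialidase, rose from 86.2 ± 13.9 to 147 ± 19.3 CPM (log2 fold change 0.77, adjusted p = 0.048). That call was kept without CD206pos replicate 1 (0.045) and lost without any other single library (0.087 to 0.22) and with RLE, upper-quartile and totals-only scaling (0.053 to 0.075).

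Of 13 genes for protein ligands 12 were tested, 3 were called higher and 1 lower, with a median of -0.35. The called share was 33.3%, against 4.87% of all tested genes. It rests on 4 genes, and 3 of them encode subunits of 1 protein complex. The list was also drawn up with earlier results of these data known. The 3 higher genes were those of the C1q subunits, a ligand of Lair1: C1qa averaged 145 ± 27.8 CPM (CD206neg) and 773 ± 120 CPM (CD206pos; adjusted p = 0.00084). Spn, which encodes the sialomucin CD43, a ligand of Siglec1, fell from 8.57 ± 2.44 to 0.39 ± 0.26 CPM (log2 fold change -4.43, adjusted p = 0.010), a call lost without CD206neg replicate 1 (0.060) and with limma-voom (0.057). The collagen genes Col1a1 and Col3a1, also ligands of Lair1, were found almost only in litter 3, with 310 and 324 reads of Col1a1 in its CD206neg and CD206pos libraries and 0 to 13 in the other 4 libraries. Col1a2 had 39, 0 and 247 reads in CD206neg and 0, 2 and 120 in CD206pos. Col4a1 averaged 14.2 ± 7.03 CPM (CD206neg) and 2.25 ± 2.38 CPM (CD206pos; adjusted p = 0.27). Col4a2 averaged 9.09 ± 3.52 and 1.29 ± 2.19 CPM (adjusted p = 0.36). For Col4a1 and Col4a2 the groups did not overlap, and neither was called.

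**Figure D4:**
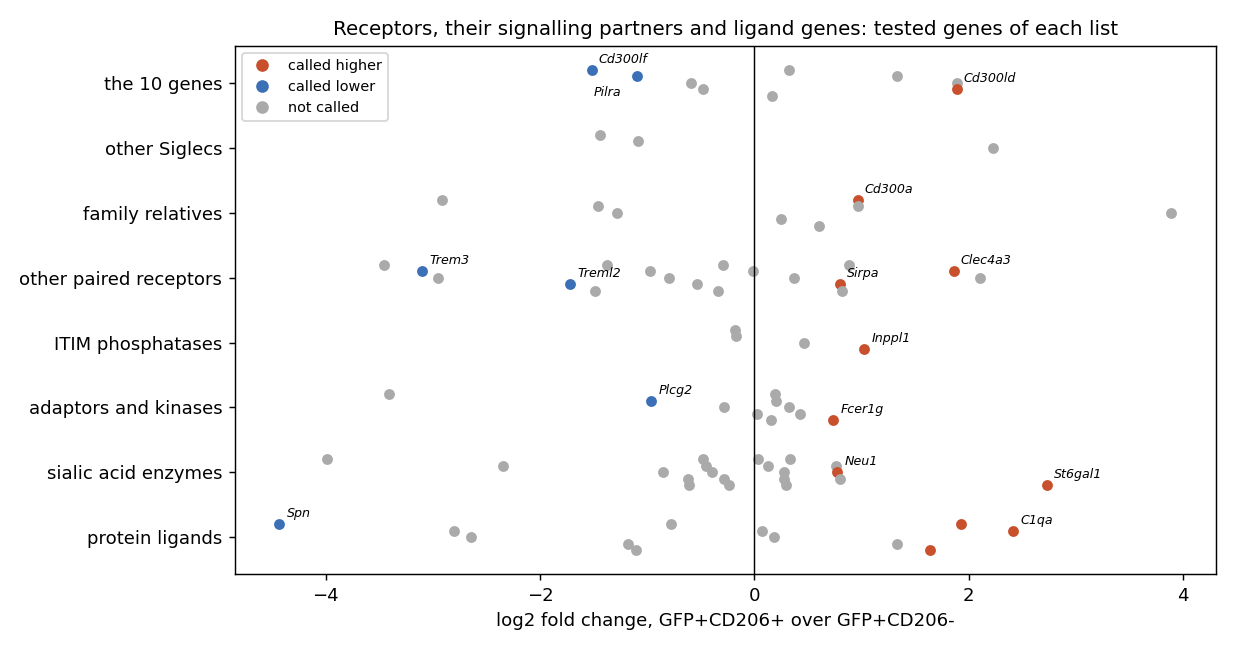
Log2 fold change of CD206pos over CD206neg for each tested gene of the receptor, signalling, sialic acid and ligand lists (1 point a gene; orange called higher, blue called lower, grey not called). Among the called genes St6gal1 and C1qa lie farthest to the right and Spn farthest to the left; Cd200r3, with 0 reads in CD206pos, is left out because a fitted value for it is no measurement.

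Among 25 other paired or inhibitory myeloid receptors, 24 were found, 19 were tested, 2 were called higher and 3 lower, with a median of -0.54, which stays at -0.54 with Cd200r3 at its bound. The called share was 26.3%, against 4.87% of all tested genes. It rests on 5 genes of a list drawn up with earlier results of these data known. Sirpa, the inhibitory receptor for CD47, rose from 553 ± 47.3 to 959 ± 165 CPM (log2 fold change 0.80, adjusted p = 0.027), and Clec4a3, a lectin of the DCIR family, from 9.62 ± 5.01 to 34.9 ± 11.3 CPM (1.86, adjusted p = 0.043). Treml2, a TREM-like receptor, fell from 57.5 ± 12.9 to 17.5 ± 6.65 CPM (log2 fold change -1.72, adjusted p = 0.020), and Trem3, an activating TREM receptor, from 10.2 ± 5.64 to 1.19 ± 0.47 CPM (-3.10, adjusted p = 0.034). Cd200r3, an activating receptor of basophils and mast cells, had 37, 22 and 52 reads in CD206neg and 0 in all CD206pos libraries, which is at least 35.3-fold lower against 3 counts over the group (adjusted p = 0.042). With the litter as a block its adjusted p was 0.12, and with the looser filter it was 0.062. With all libraries kept, Trem3 was also not called with limma-voom (adjusted p = 0.11), nor Clec4a3 with library totals only (0.056). Leaving out single libraries ended these calls too: any of 5 libraries for Sirpa (all but CD206pos replicate 1; 0.085 to 0.16), for Clec4a3 (all but CD206neg replicate 2; 0.064 to 0.16) and for Trem3 (all but CD206neg replicate 1; 0.065 to 0.18), any of the 6 for Cd200r3 (0.079 to 0.16), and for Treml2 any of 4 (CD206neg replicates 1 and 2, CD206pos replicates 2 and 3; 0.068 to 0.10). Of 6 mast cell markers only Cpa3 was tested, and it was lower in CD206pos, where the summed level was 0 CPM in every library against 5.79 to 9.58 CPM in CD206neg. That sum is mostly Cpa3, at 5.69 to 6.97 CPM in CD206neg. Mcpt4, Tpsb2 and Cma1 had 0 reads in all 6 libraries. Ms4a2 had 48 reads in CD206neg replicate 1 only, and Fcer1a had 15 in CD206neg replicate 3 only. The part of mast cells in the Cd200r3 value was not tested.

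As a description over the 6 libraries, the genes whose log2 CPM followed that of Cd300ld most closely among 8327 genes of at least 10 CPM were Pfkfb4, Tlr13, Mbnl2, Cx3cr1 and P2rx7, with Pearson r between 0.995 and 0.999. For Pilra they were Chn2, Glipr2, Rrp1b, Ly6e and Glipr1, with r between 0.988 and 0.993. Such values share the libraries, their depth and the difference between the groups. They do not give the size of a change. Mean levels in CD206neg and CD206pos were 25.4 and 33.5 CPM for Pfkfb4, 36.1 and 114 for Tlr13 and 86.0 and 104 for Mbnl2. For Cx3cr1 they were 1120 and 1830 CPM and for P2rx7 43.0 and 76.3 CPM, against 12.8 and 47.2 CPM for Cd300ld.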

How the data were processed

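Each of the 6 deposited tables gives raw read counts per gene; the authors counted reads over GENCODE vM14 exons by featureCounts 1.5.2, per the file headers. The headers show no option for strand, multi-mapping reads or overlapping genes, so reads shared between genes were not counted and strand was not used. The submitters' processing notes also name STAR 2.3 and FastQC. Exon lengths and coordinates (GRCm38) are the deposited ones, and symbols (GENCODE M21) matched 51633 of 51912 identifiers.

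The main test used edgeR 4.0.16 under R 4.3.3 (filterByExpr, TMM scaling, robust quasi-likelihood F test, Benjamini-Hochberg over all tested genes). The SE is the log2 fold change divided by the square root of F, and the common coefficient of biological variation came to 0.44. The design names 3 litters and the titles number the AGM, so a number was taken to stand for a litter. Deviations from the group means correlated at 0.09, 0.04 and 0.18 within litters 1, 2 and 3. The highest correlation of each CD206neg library with a CD206pos library of another litter was -0.01, 0.06 and -0.02. For litter 2 that was above the value within the litter, so these values do not bear out its pairing. That the libraries within a group came from separate animals is given only by the litters. On this reading the CD206neg and CD206pos libraries of a number share a litter, and the main test left that pairing out. No pair of libraries of a group held like counts (chi-square over its degrees of freedom was 36.9 or more). In data simulated on 12091 genes of this comparison, edgeR recovered 67.0% of 194 genes changed 4-fold, with 8 false calls. The largest fold difference of means among the tested receptor genes was 3.70 (Cd300ld and Siglech). Recovery of changes smaller than 4-fold was not simulated.

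Genes were named by a rule: the 10 receptors, up to 4 called genes per list and direction, genes a result turned on, and the 5 closest profiles of Cd300ld and Pilra. The members and lists were chosen with earlier results of these data known. Alternatives were the litter block, RLE, upper-quartile and totals-only scaling, looser (1 read) and stricter (5 CPM in 3 libraries) filters, DESeq2 1.42.0, limma-voom 3.58.1 with quality weights, no robust estimation, and leaving out each library and litter. At these depths 3 reads are 0.16 to 0.18 CPM. Reads are not independent molecules, so intervals and floors cover counting error only. Shared sequence was measured as overlap of deposited exons and as 50-base windows of GENCODE M21 transcripts.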

Additional observations from a re-analysis of the deposited data

How the results depend on the processing

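Of the 10 receptor genes, Pilra and Cd300lf kept their direction in all 18 alternatives and their call in 10, and Cd300ld its direction in 18 and its call in 9. Genes called over the whole table numbered 617, 1210 with DESeq2, and 3 to 561 on leaving out a library or litter. Receptor genes called higher numbered 1, and 0 with upper-quartile scaling and with library totals only, 2 with the looser filter, the stricter filter, limma-voom and the replicate block, 3 with DESeq2, and 0 to 2 on leaving out a library or litter. Those called lower numbered 2 in every alternative with all libraries, and 0 to 2 on leaving out a library or litter. The sign turned for Siglece without CD206neg replicate 1, for Pirb without CD206neg replicate 3, and for Lair1 without CD206pos replicate 3 and without litter 3 (-0.088). On leaving out a library or litter the log2 fold change ranged from -0.069 to 0.65 for Siglece, from -0.87 to 0.043 for Pirb and from -0.18 to 0.43 for Lair1. Library totals only shifted the median of all genes to -0.09 and gave 273 higher and 284 lower calls, against 376 and 241. The median log2 fold change of the other Siglecs was -1.18 with library totals only, 0.40 with the looser filter, -1.27 with the stricter filter and -1.19 with limma-voom, and -1.46 to -0.89 on leaving out a library or litter. That of the ITIM phosphatases was 0.063 and that of the adaptors and kinases 0.087 with library totals only, and 0.040 to 0.25 and -0.0056 to 0.23 on leaving out a library or litter. That of the sialic acid genes was 0.10 with limma-voom, 0.078 with the replicate block and -0.26 to 0.13 on leaving out a library or litter. That of the ligand genes was -0.78 with either filter, 0.50 with limma-voom, 0.28 with the replicate block and -3.38 to 1.38 on leaving out a library or litter. The looser and stricter filters change which genes enter these medians; otherwise the cause was not tested. The replicate block gave 703 called genes; among the genes of the receptor, signalling, sialic acid and ligand lists it added calls for Siglech, Cd300c2, Inpp5d, Clec12a, Trem2, Selplg and Apoe and ended that of Cd200r3, and among the marker lists it added Cx3cr1, Tek and Egfl7 and ended Ccr2 (adjusted p = 0.077), with no other change in these lists. At these depths 3 reads are 0.16 to 0.18 CPM. Siglec1 had 0 or 3 reads in CD206neg libraries. In CD206pos it had 0 reads in replicate 1, 63 reads (3.61 CPM) in replicate 2 and 21 reads (1.21 CPM) in replicate 3.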
